A study of Homo sapiens with 12 samples.

Results

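The insulin-like growth factor binding proteins are encoded by 7 genes, IGFBP1 to IGFBP7, which were taken by symbol from the 60617 genes counted in 12Z cells. The 7 symbols were all found, and 6 of the 7 genes passed the filter on low counts (a mean of at least 1 read pair per library), which left 23041 genes for testing. IGFBP1 did not pass. In short, IGFBP5 rose and IGFBP6 fell with insulin on either plasmid, IGFBP6 was also lower with the Viperin plasmid, and IGFBP4 was the most abundant member per length in every library. Of these 6 calls, only the rise of IGFBP5 with insulin on the Viperin plasmid passed in all 21 alternative fits. The falls of IGFBP6 with insulin on the empty vector and with the plasmid under vehicle were each lost in 6 of 21. These were DESeq2, limma-voom, the fit of the 2 groups alone and fits without a library of the groups compared.

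The IGFBPs are secreted proteins that hold IGF1 and IGF2 outside the cell, slow their clearance and control how much ligand reaches the IGF1 receptor. IGFBP1 to IGFBP6 do not bind insulin with high affinity, and proteases that cut the binding proteins release the ligand. IGFBP1 is made by the liver and by decidualizing endometrial stroma, where it is a standard marker, and its transcription is known to be repressed by insulin through FOXO factors. IGFBP3 and IGFBP5 can form a complex with an IGF and the acid-labile subunit (IGFALS), IGFBP6 prefers IGF2, and IGFBP7 binds IGFs only weakly.

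12Z is an immortalized human endometriotic epithelial cell line, so each of the 12 libraries came from 1 line. The cells were transfected transiently with FuGene HD, serum starved and then kept in serum-free medium. There were 4 groups of 3 libraries. Cells with the pCAG empty vector received vehicle in the group Control and 100 nM insulin in the group Insulin. Cells with the pCAG vector that carries Viperin received vehicle in the group Viperin and the same insulin dose in the group Viperin + Insulin. In every group RNA was taken 24 h after that treatment. One protocol text names a pBabe empty vector where the treatment labels give pCAG. Libraries held 25979022 to 46889002 read pairs assigned to genes. RSAD2, the gene of Viperin, was at 2.92 ± 0.60 CPM in Control and 4.01 ± 1.101 CPM in Insulin, and at 547 ± 146 CPM and 516 ± 80.8 CPM in the matching groups with the Viperin plasmid (SD, n = 3). CPM here are read pairs per 1000000 assigned, after TMM scaling. Of 10 epithelial markers, 5 reached 10 CPM (KRT7, KRT8, KRT18, KRT19 and OCLN), and 3 were under 1 CPM on average (EPCAM, CLDN3 and ESRP1). CDH1 was at 0.81 to 2.0 CPM and CLDN4 at 1.16 to 1.83 CPM, while all 10 mesenchymal and fibroblast markers reached 10 CPM. The study names the line epithelial, and of these epithelial markers only keratins and OCLN reached 10 CPM in these libraries. In RNA from a whole culture, fewer cells of a type and less RNA per cell cannot be told apart.

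In GENCODE release 44 (GRCh38), 4 of the members lie in 2 neighbouring pairs. IGFBP2 (ENSG00000115457.10, chr2:216632828-216664436, plus strand) and IGFBP5 (ENSG00000115461.5, chr2:216672105-216695549, minus strand) face each other across 7668 bases. IGFBP1 (ENSG00000146678.10, chr7:45888360-45893660, plus strand) and IGFBP3 (ENSG00000146674.15, chr7:45912245-45921874, minus strand) face each other across 18584 bases. IGFBP4 (ENSG00000141753.7) lies at chr17:40443450-40457725 on the plus strand, IGFBP6 (ENSG00000167779.9) at chr12:53097436-53102345 on the plus strand and IGFBP7 (ENSG00000163453.11) at chr4:57030773-57110385 on the minus strand. The 3′ end of IGFBP7 overlaps POLR2B on the opposite strand. Counts on the strand opposite to IGFBP7 were 89.1% of its own, against 0.07% to 0.45% for the 5 other tested members, so the value of IGFBP7 relies on the strand of the reads. Over all genes the reverse strand held 94.1% to 94.3% of assigned read pairs.

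The RefSeq promoter table (GRCh38.p14) held 5 of the 7 members: IGFBP2, IGFBP3, IGFBP4, IGFBP5 and IGFBP6. IGFBP1 and IGFBP7 had no entry. The 250 bases before each annotated start were searched on both strands for GTAAACA, a core sequence of FOXO sites, for GGGCGG, the GC box, and for TATAAA, the TATA box. IGFBP6 was the member with GTAAACA, 186 bases before its start on the plus strand, and it also had GGGCGG 17 bases before it. GTAAACA was in 2.98% of 35116 promoter windows of this length, GGGCGG in 42.6% and TATAAA in 10.7%. Most of the IGFBP6 window is also the 5′ untranslated part of a longer GENCODE transcript, so 30 bases around the match are shown for this member. The whole windows are shown for IGFBP5, which holds none of the 3 letter strings, and for IGFBP4, the most abundant member. IGFBP4 holds TATAAA 29 bases before its start and GGGCGG on the other strand 83 bases before it. Capitals mark the matches, on the strand shown or, as CCGCCC for GGGCGG, on the other. A match is a description of the sequence and not a binding site. IGFBP2, IGFBP3, IGFBP4 and IGFBP5 had no GTAAACA, and a link between the matches and the responses to insulin was not tested.
IGFBP6 (chr12:53097470-53097499, plus strand): caatttgggaaGTAAACAgaaactggaaag
IGFBP5 (chr2:216695550-216695799, minus strand): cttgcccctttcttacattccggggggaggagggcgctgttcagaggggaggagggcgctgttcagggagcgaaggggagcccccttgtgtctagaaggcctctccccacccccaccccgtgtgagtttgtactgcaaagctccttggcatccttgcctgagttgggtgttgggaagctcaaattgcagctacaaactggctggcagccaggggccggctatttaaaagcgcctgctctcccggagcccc
IGFBP4 (chr17:40443200-40443449, plus strand): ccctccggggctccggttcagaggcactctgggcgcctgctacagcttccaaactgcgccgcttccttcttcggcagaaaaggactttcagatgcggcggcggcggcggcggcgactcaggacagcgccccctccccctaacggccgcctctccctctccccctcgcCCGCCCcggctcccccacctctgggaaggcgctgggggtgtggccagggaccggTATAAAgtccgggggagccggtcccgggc

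Levels were compared between members per kilobase of merged exons. IGFBP4, which is cut by the protease PAPPA, was the most abundant at 130.7 CPM per kb on average over the 12 libraries (113 to 161), 68.3% of the summed level of the 6 members. IGFBP6 followed at 34.5 CPM per kb (28.1 to 43.2). IGFBP7 at 11.2 (9.52 to 13.3) and IGFBP5 at 10.4 (8.41 to 12.3) CPM per kb overlapped, with IGFBP7 the higher in 7 of 12 libraries. IGFBP3, the main carrier of IGFs in serum, was at 2.13 (1.85 to 2.36) and IGFBP2 at 2.01 (1.62 to 2.25) CPM per kb, and IGFBP3 was the higher in 8 of 12. The first 4 positions did not depend on the length used: per kilobase of the canonical transcript, IGFBP4 was at 130.7, IGFBP6 at 49.1, IGFBP7 at 15.2 and IGFBP5 at 10.8 CPM. The last 2 did, since IGFBP2 was then at 6.73 and IGFBP3 at 3.73 CPM per kb. With the empty vector the summed level of the 6 members was 189 ± 5.38 CPM per kb under vehicle and 208 ± 17.3 under insulin. With the Viperin plasmid it was 180.5 ± 7.64 and 187 ± 4.60 (SD, n = 3). The IGFBP mRNA pool was thus mostly IGFBP4 in each group.

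**Figure D1:**
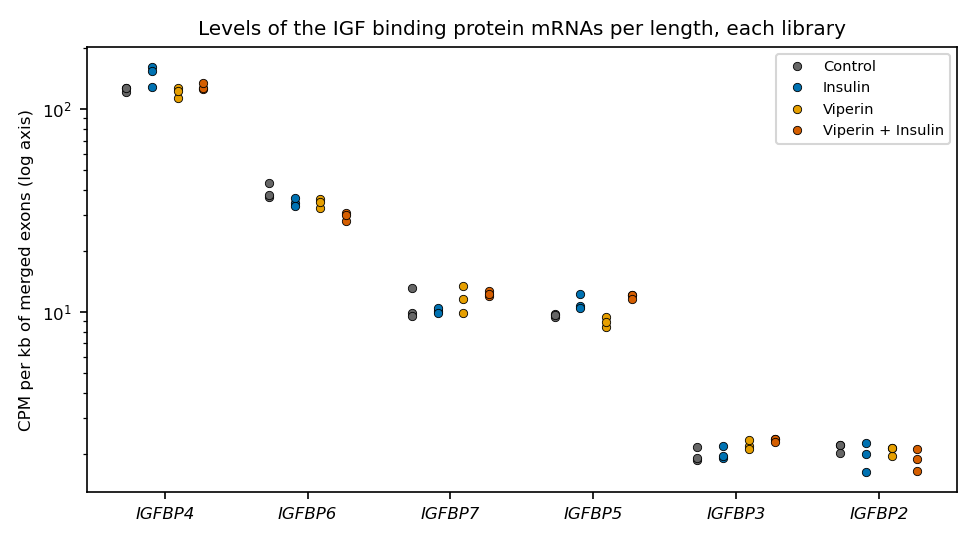
Level of each tested member in each of the 12 libraries, as TMM-scaled CPM per kilobase of merged exons on a log axis, with 1 point per library coloured by group. IGFBP4 lies at 113 to 161 in all libraries, above IGFBP6 at 28.1 to 43.2, while IGFBP7 and IGFBP5 overlap, as do IGFBP3 and IGFBP2.

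IGFBP1 was close to absent. It had 7 read pairs in 420347843 over the 12 libraries, 0.0167 CPM with an exact Poisson 95% interval of 0.00670 to 0.0343 that covers counting error only. CPM in this paragraph were taken on the assigned read pairs, without TMM scaling. Counts were 1, 0 and 0 in the Control libraries, 2, 1 and 0 in the Insulin libraries, 0, 1 and 2 in the Viperin libraries and 0 in each Viperin + Insulin library. The 0 of 117008853 read pairs in Viperin + Insulin has an exact Poisson 95% interval of 0 to 0.0315 CPM, and 3 counts there would be 0.0256 CPM. No change of IGFBP1 was detectable at this depth.

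The first question was how the binding proteins respond to insulin. With the empty vector, 2 of the 6 tested members passed an adjusted p of 0.05 in edgeR, beside 5.49% of all genes tested, and with the Viperin plasmid the same 2 members passed, beside 4.56%. IGFBP5 rose and IGFBP6 fell in both comparisons. In the test of the fit on simulated counts, false calls were more frequent than the threshold allows, which bears most on adjusted p-values near 0.05. The median log2 fold change of the 6 members was -0.03 with the empty vector, against -0.01 over all genes, and 0.08 with the Viperin plasmid, against 0.00.

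IGFBP5 is a matrix-bound member found at high levels in mesenchymal cells. It was at 61.3, 63.2 and 62.5 CPM in Control and at 79.4, 69.2 and 67.9 CPM in Insulin. With the Viperin plasmid it was at 61.0, 54.4 and 58.0 CPM in Viperin and at 78.6, 78.5 and 75.3 CPM in Viperin + Insulin. In both settings every library with insulin was above every library without it. The log2 fold change was 0.21 (SE 0.05, adjusted p = 0.00236, edgeR), a rise of 15.8%, with the empty vector. It was 0.42 (SE 0.05, adjusted p = 2.0e-09, edgeR), a rise of 33.8%, with the Viperin plasmid. The second value held under all 21 alternative settings, with log2 fold changes of 0.38 to 0.46. The first was lost without Insulin library 1, the highest of its group, where it came to 0.14 (adjusted p = 0.0990).

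IGFBP6, the member that prefers IGF2, moved the other way. It was at 49.5, 50.9 and 58.1 CPM in Control and at 46.4, 49.1 and 44.7 CPM in Insulin. It was at 44.04, 48.2 and 47.04 CPM in Viperin and at 41.6, 37.9 and 40.3 CPM in Viperin + Insulin. Libraries with insulin lay below those without it on each plasmid, with a gap of less than 1 CPM between Insulin and Control. The log2 fold change was -0.18 (SE 0.05, adjusted p = 0.0254, edgeR), or -11.8%, with the empty vector and -0.21 (SE 0.05, adjusted p = 0.00625, edgeR), or -13.8%, with the Viperin plasmid. With the empty vector the call was lost without Control library 3, the highest of the 12 (-0.10, adjusted p = 0.338), without Insulin library 1 (adjusted p = 0.0739) or without Insulin library 3 (adjusted p = 0.195), and in DESeq2, limma-voom and the fit of these 2 groups alone. With the Viperin plasmid it was lost without Viperin library 2 (adjusted p = 0.0706) or Viperin + Insulin library 2 (adjusted p = 0.0753).

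The CPM ratio of IGFBP5 to IGFBP6 in each library restates these fold changes, since the pair was chosen for moving apart, and is given only as a description. It was 1.24, 1.24 and 1.07 in the Control libraries and 1.71, 1.41 and 1.52 in the Insulin libraries. With the Viperin plasmid it was 1.39, 1.13 and 1.23 under vehicle and 1.89, 2.07 and 1.87 under insulin. The ranges without insulin overlapped each other and lay below both ranges with insulin. The 3 Viperin + Insulin libraries had the highest ratios of the 12.

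IGFBP4 was at 279, 267 and 279 CPM in Control and at 283, 355 and 340 CPM in Insulin. These 2 groups did not overlap, but Insulin library 1 lay next to the Control libraries and apart from the other 2. The log2 difference of 0.24 (SE 0.08, 95% CI 0.06 to 0.42) did not pass (adjusted p = 0.135, edgeR). It passed without Insulin library 1 (0.34, adjusted p = 2.1e-08), in DESeq2 (0.25, adjusted p = 0.0417), in limma-voom (0.24, adjusted p = 0.00463) and with no filter on low counts (0.25, adjusted p = 6.9e-08). With the Viperin plasmid IGFBP4 was at 280.5, 249.8 and 271 CPM without insulin and at 277, 279.8 and 297 CPM with it. There the groups overlapped and the log2 difference was 0.09 (SE 0.08, 95% CI -0.09 to 0.27, adjusted p = 0.689, edgeR).

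IGFBP2, IGFBP3 and IGFBP7 did not pass for insulin on either plasmid. IGFBP2, a binding protein raised in many tumours, ranged from 7.69 to 10.7 CPM over the 12 libraries, with log2 differences of -0.12 (SE 0.10) and -0.14 (SE 0.10). IGFBP3 ranged from 8.46 to 10.8 CPM, with 0.02 (SE 0.09) and 0.08 (SE 0.09). IGFBP7, also known for its deposition in vessel walls, ranged from 18.4 to 25.8 CPM, with -0.08 (SE 0.12) and 0.08 (SE 0.12). Insulin and vehicle libraries overlapped in each of these 6 tests, and adjusted p-values were 0.538 to 0.946 in edgeR. The 95% intervals were -0.32 to 0.07 and -0.34 to 0.05 for IGFBP2, -0.16 to 0.21 and -0.09 to 0.25 for IGFBP3, and -0.35 to 0.19 and -0.17 to 0.34 for IGFBP7. Each interval held, in at least 1 direction, a change of the size seen for IGFBP6 on that plasmid.

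**Figure D2:**
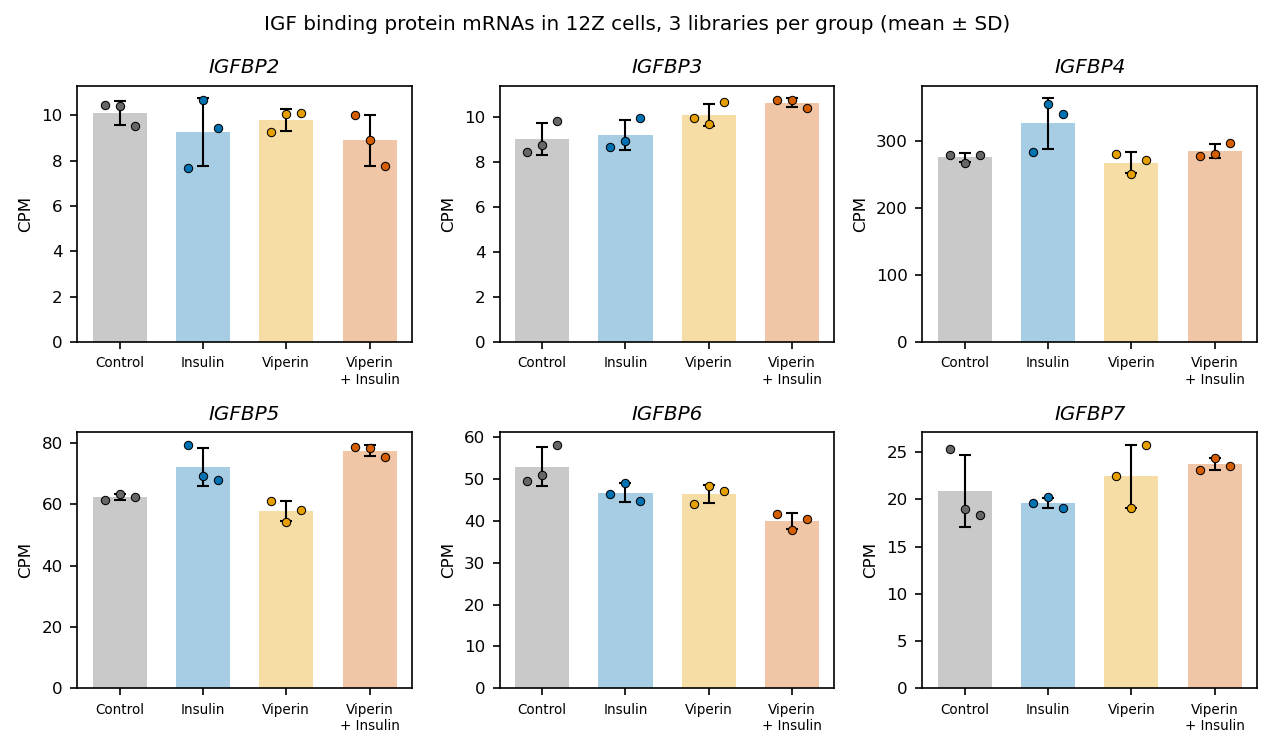
TMM-scaled CPM of the 6 tested members in each library (points), with bars for the group mean and error bars for the SD of 3 libraries. In IGFBP5 the insulin groups lie above the vehicle groups on both plasmids, in IGFBP6 the mean falls from 52.9 in Control to 39.9 in Viperin + Insulin, and in IGFBP4 Insulin library 1 lies apart from its group.

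The second question was whether the Viperin plasmid altered the binding proteins. IGFBP6 was the only tested member of the 6 that passed, both under vehicle, beside 2.29% of all genes tested, and under insulin, beside 3.08%. IGFBP6 was lower with the plasmid, by a log2 fold change of -0.19 (SE 0.05, adjusted p = 0.0343, edgeR), or -12.4%, under vehicle. Under insulin it was -0.23 (SE 0.05, adjusted p = 0.00554, edgeR), or -14.5%. Libraries of the 2 plasmids did not overlap in either setting. Under vehicle the call was lost without Control library 3 (-0.11, adjusted p = 0.393), without Viperin library 1 (adjusted p = 0.233) or without Viperin library 3 (adjusted p = 0.0645), and in DESeq2, limma-voom and the fit of the 2 groups alone. Under insulin it was lost without Insulin library 2 (adjusted p = 0.104) or Viperin + Insulin library 2 (adjusted p = 0.0764). IGFBP6 thus had its lowest 3 values of the series in Viperin + Insulin, and the 4 comparisons share groups with each other, so they are not independent.

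The share of read pairs from mitochondrially encoded genes moved with IGFBP6. It was 5.59% to 6.64% in Control and 5.14% to 5.18% in Insulin, and with the Viperin plasmid 4.81% to 5.34% under vehicle and 4.28% to 4.52% under insulin. With those genes left out of the library sizes, the IGFBP6 log2 fold changes were -0.18 and -0.22 for insulin and -0.19 and -0.23 for the plasmid, and all 4 still passed (adjusted p = 0.0299, 0.0050, 0.0330 and 0.0038 in edgeR). That refit changes only the scaling. A link between the mitochondrial share and the level of IGFBP6 was not tested. The summed level of the 10 mesenchymal and fibroblast markers was 7032 to 8075 CPM in Control and 7341 to 7434 CPM in Insulin, and 8171 to 8656 CPM with the Viperin plasmid. For the plasmid, COL1A2 and COL3A1 rose under vehicle (0.37 and 0.27) and under insulin (0.40 and 0.21), and under insulin PDGFRB rose (0.26) and VIM fell (-0.15). For insulin, PDGFRB fell on both plasmids (-0.31 and -0.20), and KRT8 rose on the Viperin plasmid (0.13). The 5 endothelial markers summed to 10.1 to 11.6 CPM with the empty vector and 10.97 to 13.9 CPM with the Viperin plasmid, and 1 of them, KDR, rose with the plasmid (0.49 under vehicle and 0.40 under insulin). The leukocyte markers summed to 5.41 to 7.50 CPM and none of them passed. The part of these genes in the IGFBP5 and IGFBP6 results was not tested.

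The other 5 members did not pass for the plasmid. IGFBP5 was lower in all 3 Viperin libraries than in Control, with a log2 difference of -0.11 (SE 0.05, 95% CI -0.21 to -0.01, adjusted p = 0.297, edgeR), and under insulin it was 0.10 (SE 0.05, adjusted p = 0.286, edgeR). Without Insulin library 1 the latter came to 0.18 and passed (adjusted p = 0.0254). IGFBP3 was at 8.68, 8.94 and 9.95 CPM in Insulin and at 10.7, 10.8 and 10.4 CPM in Viperin + Insulin. These did not overlap, but the log2 difference of 0.21 (SE 0.09, 95% CI 0.04 to 0.38) did not pass (adjusted p = 0.200, edgeR). IGFBP7 was at 19.6, 20.2 and 19.1 CPM in Insulin and at 23.1, 24.4 and 23.6 CPM in Viperin + Insulin. The log2 difference was 0.27 (SE 0.12, 95% CI 0.01 to 0.53, adjusted p = 0.315, edgeR). It passed at nearly the same size, 0.26 to 0.27, with no filter, in the fit of the 2 groups alone and without Control library 1. Control library 1 held the highest IGFBP7 of its group, 25.3 CPM against 19.0 and 18.4 CPM. That library also had the highest share of read pairs mapped to more than 1 place, 13.9% against 9.44% to 12.1% in the others, and a part for this in the value was not tested. Without it, IGFBP7 was also higher in Viperin than in Control, by 0.26 (adjusted p = 0.0306), where the fit with all libraries gave 0.11 (adjusted p = 0.793). This was the 1 of 21 alternatives in which that difference passed. Viperin library 3 had the highest IGFBP7 of the 12 libraries (25.8 CPM, against 22.5 and 19.1 CPM in its group) and a share of 12.1%. Without both libraries the difference was 0.16 (adjusted p = 0.313), and without Viperin library 3 alone it was 0.0068 (adjusted p = 0.989). For IGFBP4 under insulin the log2 difference was -0.19 (SE 0.08, adjusted p = 0.301, edgeR), and it was -0.29 (adjusted p = 2.3e-06) without Insulin library 1, -0.18 (adjusted p = 0.0323) in limma-voom and -0.20 (adjusted p = 4.6e-05) with no filter.

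The third question was whether insulin acted differently on the 2 plasmids. The difference of the insulin responses was taken as the log2 change on the Viperin plasmid minus that on the empty vector. None of the 6 members passed in edgeR, beside 0% of all genes tested. At an unadjusted p under 0.05 edgeR counted 1297 of the 23041 genes, DESeq2 865 and limma-voom 1343, and each of these tools also called 0. IGFBP5 had the largest difference of the members, 0.21 (SE 0.07, 95% CI 0.07 to 0.34, unadjusted p = 0.00283, adjusted p = 0.597 in edgeR). The larger rise of IGFBP5 on the Viperin plasmid was therefore not shown to differ from that on the empty vector. For IGFBP6 the difference was -0.03 (SE 0.07, 95% CI -0.18 to 0.11), and for IGFBP4 it was -0.15 (SE 0.11, 95% CI -0.41 to 0.10). IGFBP2, IGFBP3 and IGFBP7 had differences of -0.02 (SE 0.14), 0.06 (SE 0.13) and 0.16 (SE 0.17).

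**Figure D3:**
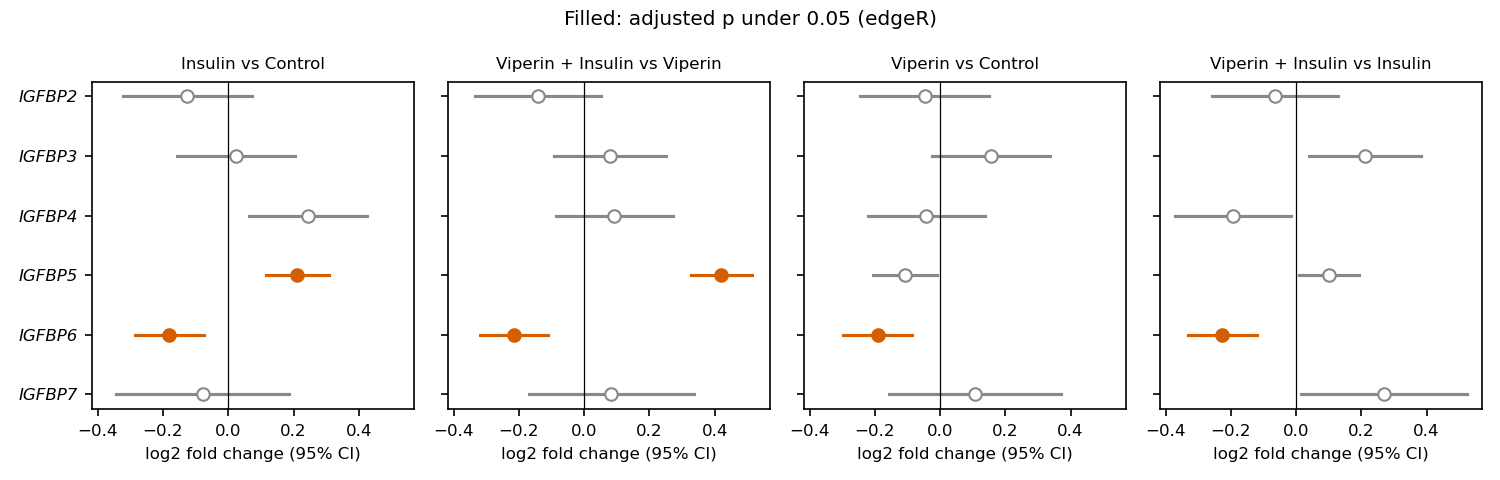
Log2 fold change of each tested member in the 4 comparisons between groups, with 95% confidence intervals derived from the edgeR F statistic. Points mark the middle of each interval and are filled where the adjusted p was under 0.05. IGFBP5 passes for insulin on both plasmids (0.21 and 0.42), and IGFBP6 is below 0 and passes in all 4 panels.

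The rest of the IGF system was followed with 7 lists of 53 other genes, of which 40 passed the filter. For insulin, 3 of the 40 rose and 4 fell on each plasmid, where 2.53% of all genes tested rose and 2.96% fell on the empty vector and 2.17% rose and 2.39% fell on the Viperin plasmid. For the Viperin plasmid under vehicle, 8 of the 40 rose and 1 fell, beside 1.25% and 1.04% of all genes. Under insulin 9 rose and 0 fell, beside 2.09% and 0.99%. Medians of the 40 log2 fold changes were -0.07 and -0.02 for insulin and 0.05 and 0.12 for the plasmid, where those of all genes were -0.01 to 0.00. No gene of these lists passed for the difference of the insulin responses. The lists were chosen with earlier results of these data known, and the genes tested reach down to a mean of 1 count per library. The shares of the lists and of all genes are therefore a description, and enrichment was not tested.

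The ligands and the acid-labile subunit were close to absent. IGF1 had 0 or 1 read pairs per library, IGF2 and IGFALS had 0 to 3, and INS had 0, so none of these 4 genes was tested.

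The receptors for these ligands were measured well, with 3 of 4 tested. IGF1R, which signals for IGF1 and IGF2, fell with insulin from 99.7 ± 5.59 to 81.7 ± 1.75 CPM on the empty vector (log2 fold change -0.29, SE 0.04, adjusted p = 1.1e-06, edgeR). On the Viperin plasmid it fell from 114 ± 4.60 to 97.1 ± 1.82 CPM (-0.23, SE 0.04, adjusted p = 5.2e-05, edgeR). INSR, the insulin receptor, fell from 24.6 ± 2.47 to 18.4 ± 0.53 CPM (-0.41, SE 0.07, adjusted p = 2.2e-05, edgeR) and from 28.7 ± 2.40 to 22.8 ± 1.39 CPM (-0.33, SE 0.07, adjusted p = 3.8e-04, edgeR). Both receptors were therefore lower with insulin on both plasmids, under all 21 alternatives. With the Viperin plasmid under insulin, IGF1R rose by 0.25 (adjusted p = 4.6e-05), INSR by 0.31 (adjusted p = 0.0030) and IGF2R, which takes up IGF2 for breakdown, by 0.19 (adjusted p = 7.9e-04, edgeR). Under vehicle IGF1R rose by 0.19 (adjusted p = 0.0027, edgeR), a call lost without Viperin library 1 (adjusted p = 0.0503), and INSR did not pass (0.23, adjusted p = 0.0507). IGF2R passed under vehicle (0.14, adjusted p = 0.0326, edgeR) with overlapping groups, and the call was lost in 7 of 21 alternatives (adjusted p up to 0.177, without Control library 3).

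Among the 10 tested proteases and their inhibitors, STC1, an inhibitor of PAPPA, rose with insulin on both plasmids. It went from 19.8 ± 0.64 to 25.8 ± 0.99 CPM (log2 fold change 0.38, SE 0.07, adjusted p = 4.2e-05, edgeR) and from 20.1 ± 2.06 to 27.4 ± 1.52 CPM (0.44, SE 0.06, adjusted p = 6.8e-07, edgeR). STC2, the other inhibitor on this list, was more abundant and did not pass in any comparison. Its level was 66.3 ± 0.69 CPM in Control and 70.6 ± 5.40 CPM in Insulin. With the Viperin plasmid STC2 was at 66.6 ± 2.27 CPM under vehicle and 66.1 ± 3.75 CPM under insulin. PAPPA itself, which cuts IGFBP4 and IGFBP5, did not pass in any comparison, with log2 differences of -0.16 to 0.26 between groups. ADAM12, another protease that cuts IGFBP5 and IGFBP3, rose with insulin on the empty vector (0.17, adjusted p = 0.0051) and with the plasmid under vehicle (0.29, adjusted p = 4.3e-06) and insulin (0.20, adjusted p = 0.0012, edgeR). MMP2, a gelatinase, was at 16.8 ± 1.07 CPM in Control and 15.5 ± 0.91 CPM in Insulin, and with the Viperin plasmid at 22.4 ± 1.5 CPM under vehicle and 15.9 ± 1.18 CPM under insulin. It rose with the plasmid under vehicle (0.41, adjusted p = 2.2e-04) and fell with insulin on the Viperin plasmid (-0.49, adjusted p = 7.1e-07, edgeR). The difference of its insulin responses was -0.37 (SE 0.10, adjusted p = 0.303, edgeR). HTRA1, a serine protease, rose with the plasmid under insulin (0.26, adjusted p = 0.0010, edgeR). Its rise under vehicle (0.18, adjusted p = 0.0366, edgeR) came with overlapping groups and was lost in 6 of 21 alternatives (adjusted p up to 0.161, without Control library 2).

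**Figure D4:**
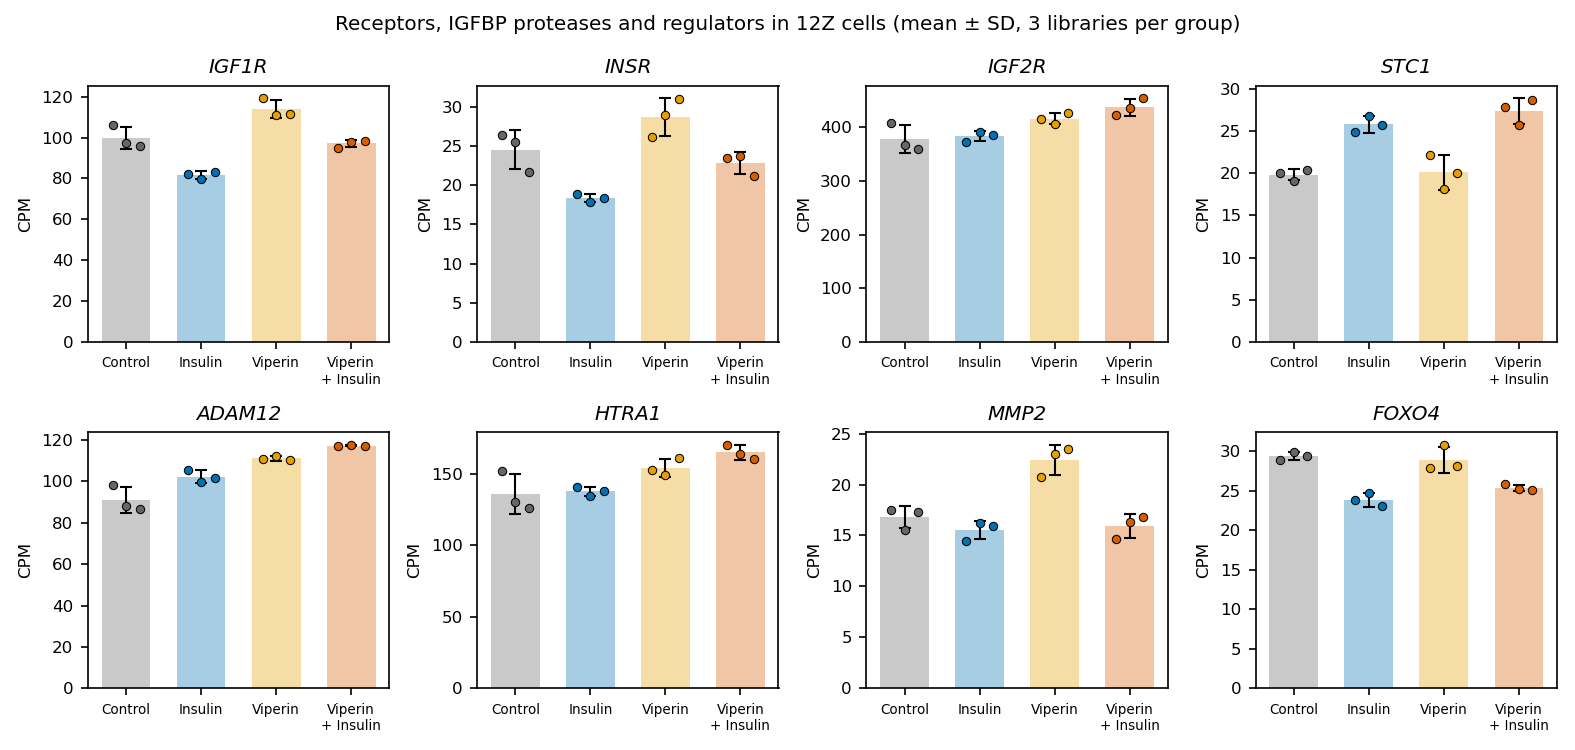
TMM-scaled CPM of 3 receptors, 4 proteases or protease inhibitors and the regulator FOXO4 in each library (points), with bars for the group mean and error bars for the SD of 3 libraries. IGF1R, INSR and FOXO4 lie lower and STC1 higher in the insulin group of each plasmid, and MMP2 has its highest mean, 22.4, in Viperin.

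Of 7 tested transcription factors known to act on IGFBP genes, FOXO4 fell with insulin on the empty vector from 29.4 ± 0.51 to 23.8 ± 0.87 CPM (log2 fold change -0.30, adjusted p = 2.9e-04, edgeR). On the Viperin plasmid it fell by 0.19 (adjusted p = 0.0392, edgeR), a call lost in 6 of 21 alternatives (adjusted p up to 0.302, without Viperin library 2). FOXO1, the factor best known at the IGFBP1 gene, was at 4.37 to 5.99 CPM and did not pass (-0.08 and -0.19 for insulin). FOXO3, the most abundant of these FOXO mRNAs at 59.5 to 69.9 CPM, did not pass in any comparison. ATF4, the factor of the amino acid response, rose with insulin by 0.14 (adjusted p = 0.0195) on the empty vector and by 0.18 (adjusted p = 9.4e-04) on the Viperin plasmid, and with the plasmid under insulin by 0.15 (adjusted p = 0.0153, edgeR). The first was lost without Control library 2 (adjusted p = 0.0706) or Insulin library 2 (adjusted p = 0.135), and the third without Insulin library 3 (adjusted p = 0.141), Viperin + Insulin library 1 (adjusted p = 0.170) or Viperin + Insulin library 3 (adjusted p = 0.101). HIF1A, the oxygen-regulated factor, rose with insulin on the Viperin plasmid (0.16, adjusted p = 0.0028, edgeR), which was lost without Viperin library 2 (0.12, adjusted p = 0.0788).

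Of 6 cell surface partners, none passed for insulin. With the plasmid under vehicle ITGB1, an integrin chain, rose by 0.18 (adjusted p = 3.4e-04) and CAV1, the caveolar coat protein, fell by 0.19 (adjusted p = 6.8e-04, edgeR). ITGAV rose by 0.17 (adjusted p = 0.0394, edgeR) with overlapping groups, a call lost in 9 of 21 alternatives (adjusted p up to 0.241, without Control library 3). Under insulin ITGB1 rose by 0.13 (adjusted p = 0.0106, edgeR), lost in 4 of 21 (adjusted p up to 0.0958, without Viperin + Insulin library 3). Of 9 tested relatives that carry an IGFBP-type domain, none passed for insulin. CRIM1, a transmembrane member, rose with the plasmid under insulin (0.22, adjusted p = 3.7e-05, edgeR) and under vehicle (0.14, adjusted p = 0.0267, edgeR), the latter lost in 5 of 21 alternatives (adjusted p up to 0.151, without Viperin library 1). CCN4 rose with the plasmid under insulin (0.48, adjusted p = 0.0077, edgeR), lost without Insulin library 2 (adjusted p = 0.0516) or Viperin + Insulin library 1 (adjusted p = 0.0525). Of 6 tested decidual markers 1 passed, HAND2, which fell with insulin on the empty vector by 0.18 (adjusted p = 0.0223, edgeR), lost in 4 of 21 alternatives (adjusted p up to 0.188, without Insulin library 2). PRL, the other classical decidual product beside IGFBP1, had 2 read pairs in all.

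The genes most like each member were taken by Pearson's r of log2 CPM over the 12 libraries among 9362 genes with a mean of at least 10 CPM. The points share their libraries and groups, so these values are a description. IGFBP5 was most like GAPVD1 (r = 0.966), LTV1 (0.950) and LIG4 (0.941), and IGFBP6 most like C8orf82 (0.950), OTUD5 (0.934) and KDELR1 (0.916). IGFBP4 was most like FOSL1 (0.955), S100A16 (0.944) and NID2 (0.943), the last a basement membrane protein. IGFBP7 was most like LEMD2 (0.904), GCN1 (0.900) and INPPL1 (0.887). The members near 10 CPM were IGFBP3, most like SLC26A11 (0.914), ABHD6 (0.882) and CSGALNACT2 (0.859), and IGFBP2, most like TBC1D22A (0.837), FAM200C (0.829) and CDK2AP2 (0.819).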

How the data were processed

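According to the labels and methods, the authors used cutadapt and Trim Galore to trim paired-end reads, FastQC for quality control, and STAR for alignment to hg38 and for counting read pairs per gene. No tool version is given in the sources used here. The methods name GENCODE release vM16, a mouse release number, while the gene IDs are human. Symbols, positions and lengths were taken from GENCODE release 44, which named 60357 of the 60617 IDs. The deposited values are raw counts with no normalization and no filter. The reverse-strand counts were used. The lines that name no gene (unmapped, multimapping, ambiguous or in no gene, 20.6% to 24.9% of read pairs) were left out of library sizes and tests. At 25979022 to 46889002 assigned read pairs, 3 counts equal 0.064 to 0.115 CPM without TMM scaling.

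A gene was kept where its mean over the 12 libraries was 1 count or more. After TMM scaling, edgeR 4.0.16 in R 4.3.3 fitted the 4 group means together across 23041 genes (robust quasi-likelihood, prior count 2), with Benjamini-Hochberg adjustment of p-values over all of them. Members and list genes were called at 0.05, and the study's threshold of 0.001 was an alternative. The methods describe 3 independent experiments per condition and the labels number the libraries only. Replicate libraries of a group differed by more than sampling noise, so none was merged. Alternatives were RLE size factors, DESeq2 1.42.0, limma-voom (limma 3.58.1), no filter, unstranded counts, a replicate block, mitochondrial genes left out, only the groups compared, and each library left out in turn, which assumes that its group varies like the others. In a comparison of 2 groups, leaving out a library of another group keeps the compared libraries and is a milder test. It changes only the shared spread, the scaling and the filter. A fit without both Control library 1 and Viperin library 3, and canonical transcript length, were added after the data were seen. The fit was tested on simulated data, where false calls were more frequent than the threshold allows. The 7 members and the gene lists were chosen with earlier results of these data known. Named genes are the members, RSAD2, up to 4 genes per list and comparison that passed, and the 3 genes most like each member. FOXO1, FOXO3, PAPPA, STC2, PRL, the ligands, the cell type markers and INSR under vehicle are named outside this rule. That choice was made after seeing their values. Tables and figures were made with Python 3.11.15, pandas 2.3.3 and matplotlib 3.10.9.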

Additional observations from a re-analysis of the deposited data

How the results depend on the processing

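Of 30 fold changes of members, 6 were called, and 1 of these, the rise of IGFBP5 with insulin on the Viperin plasmid, passed under every alternative that was run. None of the 6 changed direction. The number of members called for insulin on the empty vector (2 of 6) was 1 in the fit of the groups compared alone, 0 at an adjusted p of 0.001, 3 with no filter on low counts, where IGFBP4 joined, and 1 to 2 with each library left out. It was also 2 in DESeq2 and in limma-voom, but there the members were IGFBP4 and IGFBP5. On the Viperin plasmid (2) it was 1 at 0.001 and 1 to 2 with each library left out. For the plasmid under vehicle (1) it was 0 in DESeq2, 0 in limma-voom, 0 in the fit of the groups compared alone, 0 at 0.001 and 0 to 2 with each library left out. For the plasmid under insulin (1) it was 2 in limma-voom, 3 with no filter, 2 in the fit of the groups compared alone, 0 at 0.001, 2 without Control library 1 and Viperin library 3, and 0 to 3 with each library left out. The difference of the insulin responses could not be fitted on 2 groups alone. The cause of these shifts was not tested.

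With libraries left out, 8 fold changes that were not called changed sign. For insulin on the empty vector these were IGFBP3 (-0.036 to 0.093) and IGFBP7 (-0.16 to 0.079), and on the Viperin plasmid IGFBP7 (-0.020 to 0.18). For the plasmid they were IGFBP4 under vehicle (-0.076 to 0.0042) and IGFBP2 under insulin (-0.18 to 0.050). For the difference of the insulin responses they were IGFBP2 (-0.13 to 0.097), IGFBP3 (-0.014 to 0.12) and IGFBP6 (-0.11 to 0.011).

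Libraries with the same replicate number did not deviate together (r of -0.16 to 0.12 over 18 pairs, 1 above 0.1, and 3 of 12 libraries closest to their own number). Control library 1 and Viperin library 3, with different numbers, reached an r of 0.139. Other pairs with different numbers came close to this. Viperin library 1 with Viperin + Insulin library 3, and Viperin library 3 with Viperin + Insulin library 2, each had an r of 0.136. These values cannot tell whether libraries of different groups came from the same experiment, under these numbers or others. With a replicate block the members called were still 2 and 2 for insulin, 1 and 1 for the plasmid and 0 for the difference. Of the 34 calls for RSAD2 and the list genes, 22 passed 0.05 in every alternative fit and 0 reversed. Over all genes, the number called was 627 to 1492 (1265 as reported) and 615 to 1575 (1050) for insulin, 235 to 1102 (528) and 278 to 1793 (710) for the plasmid and 0 to 37 (0) for the difference. IGFBP2 and IGFBP3 rested on 219 to 491 counts per library, and IGFBP1 had too few to test.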
